A study of Homo sapiens with 54 samples.

Results

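The regions described here are stretches of chromatin called for acetylated lysine 27 of histone H3 (H3K27Ac) in T47D cells after the progestin R5020. At the same place they had no called H3K27Ac region in vehicle-treated cells and no called progesterone receptor (PR) region after R5020. They are the rows of the R5020 H3K27Ac peak list on chromosomes 1 to 22 and X that shared no base with a row of the vehicle H3K27Ac list and none with a row of the R5020 PR list. There were 36933 of them among 112542 R5020 H3K27Ac regions on these chromosomes, which is 32.8%, and they are called members or regions gained without PR below. Members were chosen by presence in the R5020 H3K27Ac list and absence from the vehicle H3K27Ac and R5020 PR lists, so their H3K27Ac heights and their distances to those lists are given as descriptions, with no test.

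T47D is an established line from an estrogen receptor-positive, PR-positive breast cancer. The cells were given ethanol vehicle or R5020, a synthetic progestin, for 1 h, and chromatin immunoprecipitation with sequencing was done with antibodies to PR, to H3K27Ac, to Maf1 and Brf1, a repressor and an initiation factor of RNA polymerase III, and to POLR3A, POLR3C, POLR3G and POLR3GL, which are subunits of that polymerase. The labels list 54 libraries in 18 groups of 3, and the deposited results are 16 peak lists, 1 for each antibody and treatment. Values of single replicates are in none of the lists. The spread between replicates is therefore unknown throughout, and the intervals given cover only the counting error of regions, which are not independent of their neighbours.

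Acetylation of lysine 27 on histone H3 is laid down by the acetyltransferases EP300 and CREBBP and marks active promoters and enhancers. PR is a nuclear receptor that binds DNA when a progestin is bound to it and recruits such coactivators, and a gene can be contacted by enhancers many kilobases away. A region that gains the mark away from PR binding can therefore belong to the same domain of acetylated chromatin as a bound enhancer, or to a separate one, and the peak lists do not tell these apart.

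The member regions were compared with 4 other classes made by the same overlaps. There were 9976 regions gained with PR, 34176 kept without PR and 31457 kept with PR, where kept means present in both H3K27Ac lists. The 24562 regions lost without PR were in the vehicle H3K27Ac list only and had no R5020 PR. Regions gained with or without PR made up 41.7% of the R5020 H3K27Ac list. The vehicle list was shorter, with 88869 regions, and sequencing depth is unknown, so depth and treatment cannot be told apart as sources of the difference in list length. The vehicle H3K27Ac list had a region over, or within 1 kb of, all 8 markers of luminal breast epithelium, 3 of 5 basal markers, 3 of 6 fibroblast markers, 3 of 5 leukocyte markers and 2 of 4 endothelial markers, against 75.3% of all protein-coding genes.

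The 211 members that covered the listed start of a protein-coding gene are the place where sequence could be read, because a promoter table was at hand and a genome was not. The 4 promoters of KIAA0930, PDE5A, KCNC1 and HTR6 printed here are those under members of the highest fold enrichment at a start, and that of DNPEP is under the region gained with PR of the highest fold at a start. RGPD6, also among the 5 highest, belongs to a family of near-identical copies and its sequence is not printed. Each run is the 250 bases before the start, 5′ to 3′ on the strand of the gene, from RefSeq on GRCh38.p14, with every CG pair in capitals. PDE5A, the cyclic GMP phosphodiesterase, is at chr4:119627738-119627987 (minus strand). KIAA0930 is at chr22:45212385-45212634 (minus strand). KCNC1, a voltage-gated potassium channel, is at chr11:17734531-17734780 (plus strand). HTR6, a serotonin receptor, is at chr1:19664625-19664874 (plus strand). DNPEP, an aspartyl aminopeptidase, is at chr2:219400008-219400257 (minus strand).
PDE5A: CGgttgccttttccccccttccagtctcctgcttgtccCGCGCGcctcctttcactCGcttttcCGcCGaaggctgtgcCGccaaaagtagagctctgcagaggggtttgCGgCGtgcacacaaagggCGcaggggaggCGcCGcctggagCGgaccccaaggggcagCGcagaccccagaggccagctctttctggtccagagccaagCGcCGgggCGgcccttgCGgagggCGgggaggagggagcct
KIAA0930: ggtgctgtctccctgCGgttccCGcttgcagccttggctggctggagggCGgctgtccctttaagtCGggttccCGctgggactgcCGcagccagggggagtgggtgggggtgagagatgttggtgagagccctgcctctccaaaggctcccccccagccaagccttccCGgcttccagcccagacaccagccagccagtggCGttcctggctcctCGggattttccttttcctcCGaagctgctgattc
KCNC1: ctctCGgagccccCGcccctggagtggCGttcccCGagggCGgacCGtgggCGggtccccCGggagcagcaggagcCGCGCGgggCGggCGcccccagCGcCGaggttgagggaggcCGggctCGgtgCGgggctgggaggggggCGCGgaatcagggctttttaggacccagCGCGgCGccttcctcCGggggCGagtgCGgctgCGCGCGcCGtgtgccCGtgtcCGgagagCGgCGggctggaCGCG
HTR6: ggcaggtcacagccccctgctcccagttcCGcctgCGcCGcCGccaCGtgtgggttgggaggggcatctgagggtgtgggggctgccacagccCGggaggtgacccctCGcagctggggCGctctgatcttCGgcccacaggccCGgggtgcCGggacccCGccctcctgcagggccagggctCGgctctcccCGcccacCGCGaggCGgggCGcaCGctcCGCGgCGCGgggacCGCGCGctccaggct
DNPEP: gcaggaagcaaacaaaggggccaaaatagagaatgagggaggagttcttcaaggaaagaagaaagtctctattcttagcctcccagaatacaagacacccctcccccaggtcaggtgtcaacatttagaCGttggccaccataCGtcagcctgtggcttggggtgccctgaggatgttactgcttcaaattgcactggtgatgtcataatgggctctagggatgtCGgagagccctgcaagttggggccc

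CG pairs were dense in the promoters of PDE5A (20 in the printed run), KCNC1 (36) and HTR6 (26), fewer in that of KIAA0930 (10) and sparse in that of DNPEP (3). Over all 222 listed starts under members, the 300-base window from 250 bases before to 50 after the start held a median of 12 CG pairs and 64% G and C. The median was 26 CG pairs for the 2185 starts under regions kept without PR, 6 for the 54 under regions gained with PR and 10 for the 148 under regions lost without PR. At least 15 CG pairs were found in 46.4% of member promoters (95% Wilson interval 40.0 to 53.0), in 80.8% of promoters under regions kept without PR and in 62.2% of all 22012 listed promoters. The difference from kept regions was -34.4 percentage points (95% Newcombe interval -41.1 to -27.6), that from promoters gained with PR was 16.8 points (2.08 to 29.1), and that from promoters lost without PR was 8.56 points with an interval that included 0 (-1.74 to 18.5). CG-rich promoters were less frequent under members than under kept regions.

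Letters that AP-1 factors, dimers of Fos and Jun proteins, recognise (TGANTCA, searched on both strands) stood in 32 of the 222 member promoters, or 14.4% (10.4 to 19.6). The share was 4.03% under regions kept without PR, 14.8% under regions gained with PR, 12.2% under regions lost without PR and 6.16% of all listed promoters. It was 8.98% of promoters under no H3K27Ac region of either treatment. Among promoters with fewer than 15 CG pairs, it was 19.3% under members (13.2 to 27.3) and 11.2% of all listed promoters. The member share exceeded that of kept regions by 10.4 points (6.27 to 15.7), and also among promoters with fewer than 15 CG pairs alone, by 11.0 points (4.17 to 19.3). Against regions lost without PR the difference was 2.25 points (-5.17 to 9.04), and against regions gained with PR it was -0.40 points (-12.9 to 8.42), both with intervals that included 0. The match is shown in capitals, with 10 bases on each side, for the 3 member promoters of highest fold that hold it. That of KIAA0930 lies at chr22:45212374-45212400 (minus strand). That of GSTP1, a glutathione transferase, lies at chr11:67583736-67583762 (plus strand), and that of PADI4, which converts arginine to citrulline in proteins, lies at chr1:17308133-17308159 (plus strand).
KIAA0930: ccgaagctgcTGATTCAtccccaggct
GSTP1: gccggcgccgTGACTCAgcactggggc
PADI4: ccgcaggtgcTGACTCAtggcctctgc

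The first capital stands 6 bases before the start of KIAA0930, 66 before that of GSTP1 and 54 before that of PADI4. The palindrome that steroid receptors such as PR bind, searched in a strict form on both strands (GNACA, any 3 bases, then TGTNC), was in 0 of 222 member promoters (95% Wilson upper bound 1.70%) and in 0.291% of all listed promoters. The forkhead letters TGTTTAC were in 1.80% of member promoters and 2.86% of all. The GATA letters AGATAA were in 8 member promoters (95% Wilson interval 1.84% to 6.95%), against 7.90% of all, 3.71% under regions kept without PR and 10.8% under regions lost without PR. These are matches of letters in short windows, and they cover only the few members at listed starts.

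Members were low and narrow regions. The fold enrichment, the authors' ratio of a peak's signal to the background the caller assumed there, had a median of 3.24, and 90% of members (the 5th to the 95th percentile) lay between 2.47 and 4.47. The highest member reached 9.21. Regions gained with PR had a median fold of 3.49, regions kept without PR 3.74 and regions kept with PR 6.30. The median width was 274 bases for members, 342 for regions gained with PR, 423 for regions kept without PR and 1139 for regions kept with PR. The shortest members were 190 bases long, the lowest width in the list, and the 5th percentile was also 190.

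**Figure D1:**
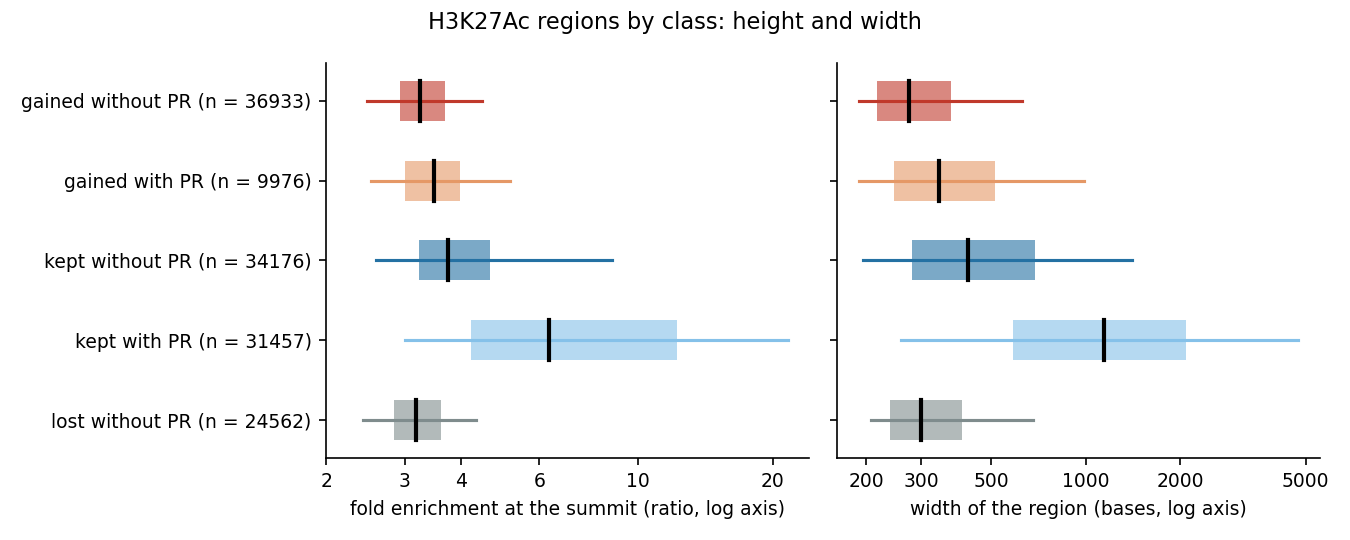
Fold enrichment (left, ratio, log axis) and width in bases (right, log axis) of H3K27Ac regions in the 5 classes, with the 5th to 95th percentile as a line, the 25th to 75th as a bar and the median as a black mark. Members have a median fold of 3.24 and a median width of 274 bases, close to the 3.17 and 300 of regions lost without PR, while regions kept with PR reach a median of 6.30 and 1139 bases.

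Regions lost without PR, the mirror class of the vehicle list, had nearly the same height, with a median fold of 3.17 and a median width of 300 bases. Folds from lists called separately are not on a common scale, so each class is read against its own list, whose median fold was 3.74 for R5020 and 3.66 for vehicle, with median widths of 404 and 475 bases. By the authors' -log10 q-value, 6715 members (18.2%) reached 5, 295 (0.799%) reached 10 and 3 reached 20. Among regions kept without PR, 50.8% reached 5 and 17.3% reached 10.

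Many members lay beside a vehicle H3K27Ac region or a PR region without touching it. A vehicle H3K27Ac region was within 1 kb of 38.3% of members and within 10 kb of 83.8%, and the median distance was 1659 bases. An R5020 PR region was within 1 kb of 38.1% and within 10 kb of 93.5%, with a median distance of 1530 bases. Both were within 1 kb of 6343 members (17.2%), and neither was within 1 kb of 15049 (40.7%). Only 927 members (2.51%) had neither within 10 kb, and 45 (0.122%) had neither within 50 kb. Being without PR in this report therefore means that no base was shared, since the R5020 PR list holds 173115 regions on these chromosomes. For regions kept without PR the median distance to PR was 1375 bases, and for regions lost without PR it was 1994 bases.

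At the edge of the rule, 14 members touched a vehicle region end to end, with 0 bases between them and a median fold of 2.89. The first 5 of these by position lay over PLEKHA6, TTL, USP13 and TENT4A and 2.25 kb from MSL2, with folds from 2.11 to 2.93. Just outside, 5 regions that shared 1 base with a vehicle region lay over FGFRL1 and RELL1 and 0.636 kb from GRK6, 2.10 kb from TFAP2A and 149.6 kb from TRPS1, with folds from 2.99 to 5.65. The 169 members 1 to 10 bases from a vehicle region had a median fold of 3.24, and the 215 regions kept without PR that shared 1 to 10 bases with one had a median of 3.29.

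The members of highest -log10 q were not typical of the class. Of the 10 with the highest values, 3 lay on chromosome 17 between 32.9 and 66.1 kb from CCDC200, among small nuclear RNA genes of the annotation: chr17:43264171-43264690 (fold 4.16, -log10 q 29.6), chr17:43297414-43297838 (5.05, 21.5) and chr17:43293228-43294021 (4.78, 17.3). All 3 shared bases with POLR3G regions of the vehicle list, and they lay 524 to 2209 bases from vehicle H3K27Ac. The 3 members covered no gene of the annotation and lay 798 to 2403 bases from the nearest small nuclear RNA gene. Whether reads there could be placed was not tested. The highest fold of all members, 9.21 (-log10 q 25.2), was at chr17:80761366-80762555 inside RPTOR, which encodes the Raptor subunit of the growth-regulating kinase complex mTORC1. That member lay 279 bases from a vehicle H3K27Ac region and 93 bases from a PR region.

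Other members of the 10 lay in or near genes of varied function. One was in GOLGA4, a golgin of the trans-Golgi network (chr3:37275465-37275795, fold 7.98), 29158 bases from vehicle H3K27Ac. One was 5.59 kb from ZIC5, a zinc finger transcription factor (chr13:99956218-99957375, fold 7.98). AMDHD1, an enzyme of histidine breakdown, held one of fold 6.90 (chr12:95947708-95948621), and ACBD7, an acyl-CoA binding protein, held one of fold 6.26 (chr10:15081618-15082231). The region at chr10:39967523-39967728 stood apart with a -log10 q of 18.8 at a fold of only 2.07. It lay 1817 kb from the nearest protein-coding gene and shared bases with R5020 Brf1 and POLR3A regions. The last was in ZBTB16, described below. The 5 widest members, from 2063 to 3711 bases, were in NXPH3, SPRYD3, MIGA2 and MUC21 and 68.9 kb from WDR5, and 4 of these 5 shared bases with an R5020 POLR3G region.

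Maf1, which represses RNA polymerase III, was rare at members. In R5020-treated cells 264 members (0.715%, 95% Wilson interval 0.634 to 0.806) shared a base with a Maf1 region, against 12.9% of regions gained with PR, 3.46% of regions kept without PR and 13.3% of all R5020 H3K27Ac regions. The difference was -12.1 percentage points from regions gained with PR and -2.74 points from regions kept without PR (95% Newcombe interval -2.96 to -2.53). The classes were split by R5020 PR, with which 82.3% of all R5020 Maf1 regions shared a base. The difference from regions gained with PR, and the gap from all regions, are therefore given as descriptions. The share at the places of lost regions was 0.464%, which is 0.251 points below that of members (0.127 to 0.370). Of the 263 Maf1 regions at members, 21 (7.98%) shared a base with PR, against 82.3% of all R5020 Maf1 regions, a gap that the choice of members without PR fixes in large part. PR lay within 1 kb of 74 of the 264 members with Maf1 (28.0%), against 38.1% of all members. The differences from regions gained with PR and kept without PR shrank to -6.25 and -1.66 points when only 100 bases on each side of the summit were read, and to -1.88 and -0.355 points when 50% of a region had to be covered. At a -log10 q of at least 5 they grew to -20.6 and -4.73 points, and the first was -5.88 points when absence meant no region within 1 kb. In vehicle-treated cells Maf1 was at 22 members (0.0596%), against 2.15% of all regions, and 16 members carried it in both treatments.

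PR itself was nearly absent from members before R5020. Vehicle PR regions shared a base with 15 members (0.0406%, 0.0246 to 0.0670), with 0.331% of regions gained with PR and with 4.77% of all R5020 H3K27Ac regions. The classes were split by R5020 PR, so vehicle PR sites that persist in R5020 count with the PR class, and the difference of -0.29 points is given as a description. When absence from a list meant no region within 1 kb, it was -0.0580 points.

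POLR3G, the variant of the polymerase III subunit that is high in stem and tumour cells, was the antibody found most often at members. In vehicle-treated cells 3652 members (9.89%, 9.59 to 10.2) shared a base with a POLR3G region, although they shared none with a called H3K27Ac region of those cells. The share was 6.13% of regions gained with PR, 24.4% of regions kept without PR, 10.6% of regions lost without PR and 23.5% of all R5020 H3K27Ac regions. In R5020-treated cells 2617 members (7.09%, 6.83 to 7.35) shared a base with a POLR3G region, against 7.43%, 15.6%, 5.77% and 18.4% of these 4 sets. The difference between members and lost regions was -0.685 points for vehicle POLR3G (-1.18 to -0.197) and 1.31 points for R5020 POLR3G (0.918 to 1.70). The first turned to 0.199 points, with an interval that included 0, for regions of -log10 q of at least 5, and to 0.876 points (0.193 to 1.55) when absence meant no region within 1 kb. The second was 3.36 and 2.04 points under the same settings and 0.766 points where 50% of the region had to be covered. The treatment tag of 4 libraries, 2 of POLR3C, 1 of POLR3G and 1 of POLR3GL, reads ethanol although their titles read R5020, so the R5020 lists of these 3 subunits rest on the titles.

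**Figure D2:**
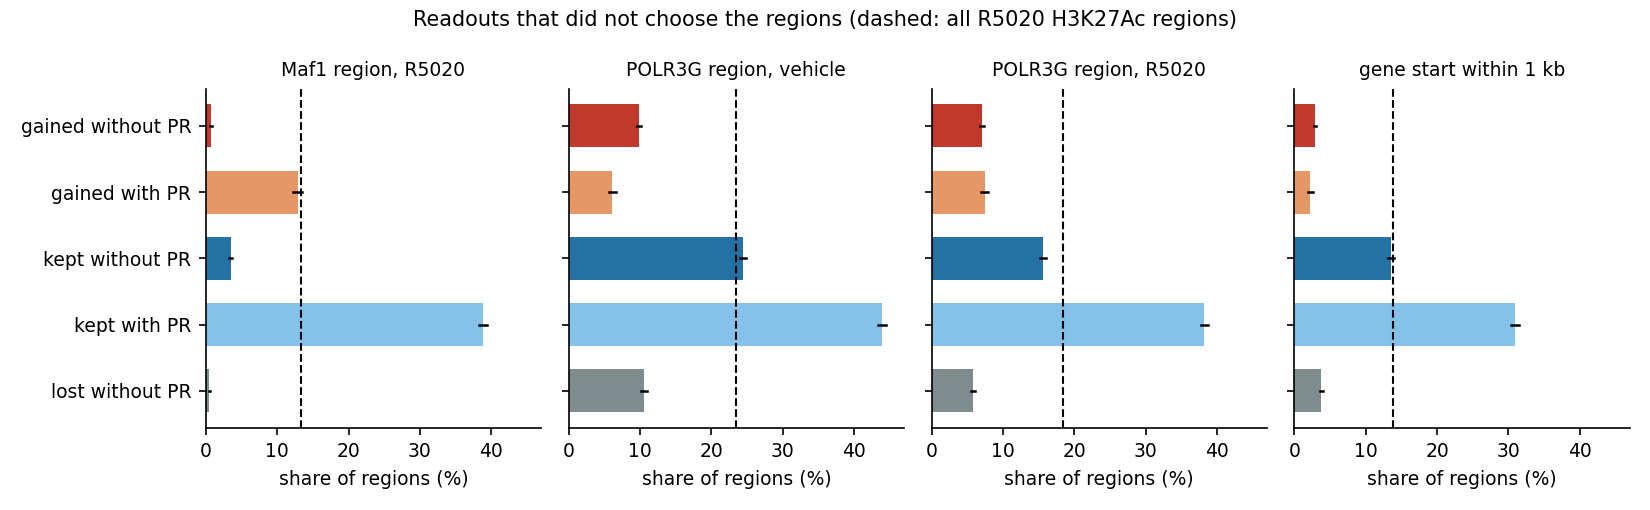
Share of the regions of each class, in percent, that shared a base with an R5020 Maf1, vehicle POLR3G or R5020 POLR3G region or had a listed gene start within 1 kb, with 95% Wilson intervals as black lines and all R5020 H3K27Ac regions as a dashed line. Members are at 0.715%, 9.89%, 7.09% and 2.88%, below the dashed line in every panel, and regions kept with PR are highest in every panel.

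The core of the polymerase III machinery was seldom at members. R5020 POLR3A, the catalytic subunit, was at 37 members (0.100% against 0.331% of all R5020 H3K27Ac regions), and R5020 Brf1 was at 24 (0.0650% against 0.522%). R5020 POLR3C was at 7 members (0.0190% against 0.388%) and R5020 POLR3GL at 14 (0.0379% against 0.0835%). In vehicle-treated cells Brf1 was at 8 members (0.203% of all R5020 H3K27Ac regions), POLR3A at 14 (0.289% of all), POLR3C at 8 (0.367% of all) and POLR3GL at 33 (0.114% of all). The POLR3A difference between members and regions lost without PR was 0.0065 points in R5020 (-0.0478 to 0.0556) and -0.0394 points in vehicle (-0.0855 to -0.00156). From regions kept without PR it was -0.286 points in R5020 (-0.363 to -0.215). Of all members, 34154 (92.5%) had no R5020 region of these 6 antibodies other than PR and H3K27Ac, a share close to the 93.9% of regions lost without PR and above the 83.0% of regions kept without PR and 81.6% of regions gained with PR, and 19 had 3 or 4 of them. Among the 5 of these with the highest -log10 q, 3 lay in the array of 5S ribosomal RNA genes on chromosome 1, with RNA5S3, RNA5S4 and RNA5S7 as their nearest genes and folds from 2.47 to 2.89, and 2 covered DUX4L23 and DUX4L22, copies of a repeat near the end of chromosome 10, with folds of 3.84 and 3.32. All 5 lie in repeated sequence.

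At transfer RNA genes, the main products of polymerase III, members lay within 200 bases of 5 of 443 genes (0.0135% of members, against 0.0489% of regions lost without PR and 0.133% of all R5020 H3K27Ac regions): TRI-AAT5-2, TRF-GAA1-2, TRL-AAG2-3, TRG-GCC2-6 and TRK-CTT6-1. Of these, 4 carried Brf1 and POLR3A in both treatments and TRK-CTT6-1 carried POLR3A in the R5020 list alone. The member at TRI-AAT5-2 (chr6:27176670-27177132, fold 4.00) lay 212 bases from vehicle H3K27Ac and 547 bases from PR. The member at TRL-AAG2-3 (chr14:20609719-20609980, fold 3.24) lay 70905 bases from vehicle H3K27Ac and 252 bases from PR. These 5 genes were singled out after their values were seen.

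The other readouts varied among members with the distance to acetylated chromatin of vehicle-treated cells. Within 1 kb of a vehicle H3K27Ac region, 14.5% of 14154 members had vehicle POLR3G. At 1 to 10 kb the share was 8.96% of 16800, at 10 to 50 kb it was 1.79% of 4861, and beyond 50 kb 1 of 1118 members had it (0.0894%). The R5020 POLR3G share went from 10.1% through 6.56% and 1.56% to 0.268% over the same steps. The Maf1 share stayed between 0.617% and 0.805%. Members with a gene start within 1 kb made up 3.75%, 1.80%, 3.11% and 7.03% of those with a value, so the most distant members were the ones most often at a listed start. Median fold was 3.28 in the nearest group and 3.24 in each of the others.

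**Figure D3:**
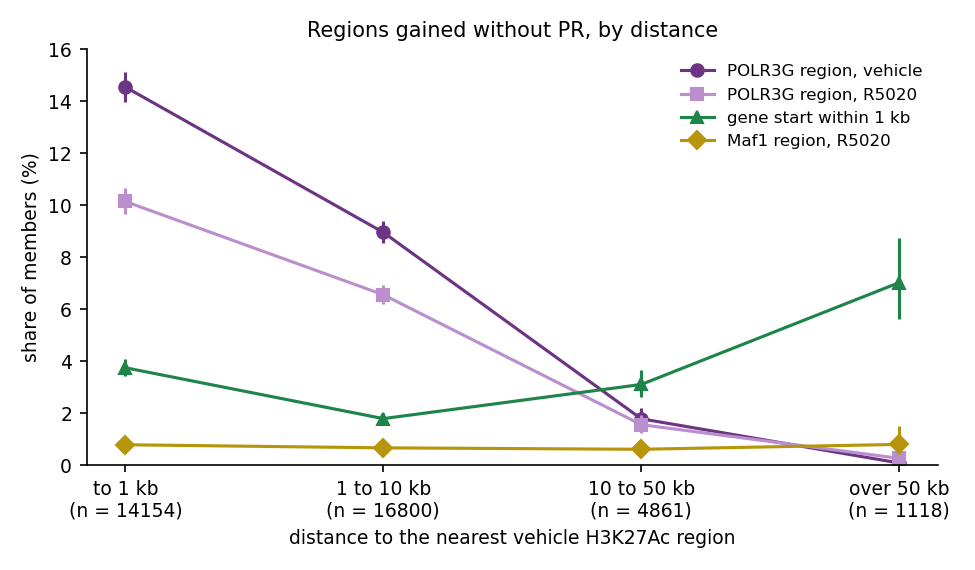
Share of members, in percent with 95% Wilson intervals, that had a vehicle POLR3G, R5020 POLR3G or R5020 Maf1 region or a listed gene start within 1 kb, by distance to the nearest vehicle H3K27Ac region. The POLR3G shares go down from 14.5% and 10.1% within 1 kb to 0.0894% and 0.268% beyond 50 kb, and the share near a start is lowest at 1 to 10 kb, at 1.80%.

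Width went with POLR3G as well. Vehicle POLR3G was at 8.09% of the 14840 members under 250 bases, at 10.2% of the 18118 from 250 to under 500 bases, at 14.6% of the 3689 from 500 to under 1000 bases and at 22.4% of the 286 of 1000 bases or more. A wider region has more bases to share, and with the readouts taken at 100 bases on each side of the summit the share over all members was 8.64%. Maf1 was at 0.580% of the narrowest group and at 2.10% of the widest.

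Distance to PR gave another order. Vehicle POLR3G was at 5.24% of the 2137 members within 100 bases of an R5020 PR region, at 6.99% of the 11936 from 100 bases to 1 kb, at 12.0% of the 20457 from 1 to 10 kb and at 10.2% of the 2403 farther away. Maf1 was at 0.562% (0.322 to 0.979), 0.519%, 0.802% and 1.08% (0.739 to 1.58) of the same groups. The intervals of the nearest and farthest groups overlap. Regions that share a base with PR are not members, and 82.3% of all R5020 Maf1 regions shared one. The order of the Maf1 shares is therefore given as a description. A listed start within 1 kb was found for 2.27%, 2.81%, 2.67% and 5.51%.

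Members were mostly away from gene starts. A listed start of a protein-coding gene lay within 1 kb of 1016 of the 35329 members on chromosomes with listed starts (2.88%, 2.71 to 3.06), against 13.5% of regions kept without PR, 2.22% of regions gained with PR, 3.77% of regions lost without PR and 13.9% of all R5020 H3K27Ac regions. The differences were -10.6 points from kept regions (-11.1 to -10.2), 0.659 points from regions gained with PR (0.30 to 0.989) and -0.889 points from lost regions (-1.19 to -0.593). The last turned to 0.156 points (-0.26 to 0.561) when absence meant no region within 1 kb. Starts were listed for 15812 of 19974 protein-coding genes and for none on chromosome 8.

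Members lay over a protein-coding gene in 62.8% of cases, a share near the 63.4% of all R5020 H3K27Ac regions. The share was 64.3% for regions gained with PR and 55.4% for regions lost without PR, so that members exceeded lost regions by 7.34 points (6.55 to 8.14). Over long non-coding RNA genes the share was 12.5% for members and 14.9% for lost regions, and 27.0% of members against 32.2% of lost regions lay over no gene of the table.

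Of the 211 members at a listed start, which are 0.597% of members against 8.64% of all R5020 H3K27Ac regions, 60 lay within 1 kb of a vehicle H3K27Ac region. They covered starts of 210 genes, and for 169 of these no listed start was under a vehicle region. For the 118 genes with 1 listed start the rule fixes this, since a member shares no base with a vehicle region. The highest was at PDE5A (chr4:119627406-119627952, fold 6.99, -log10 q 15.0), which had another listed start under vehicle H3K27Ac. The vehicle region nearest to this member was 561 bases away. KIAA0930 followed (chr22:45211939-45212704, fold 6.49), then RGPD6 (chr2:110610591-110611039, fold 5.74), KCNC1 (chr11:17734457-17735114, fold 5.74) and HTR6 (chr1:19664547-19665303, fold 5.49). None of these 4 genes had a listed start in the vehicle list, which the rule fixes for HTR6, with 1 listed start. KCNC1 was 35485 bases and RGPD6 33369 bases from the nearest vehicle region. Further genes with a member at a start, picked after their values were seen, include GSTP1 (fold 5.36), FLT1, a receptor for vascular endothelial growth factor (4.49), CDK6, a cell cycle kinase (4.24), and EREG, an epidermal growth factor receptor ligand (3.99).

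The members far from both vehicle H3K27Ac and PR were few. Among the 45 with neither within 50 kb, the highest -log10 q belonged to the chromosome 10 region of fold 2.07 named above. The next were in GABRG1, a subunit of the GABA receptor of neurons (chr4:46065707-46066000, fold 5.49), 237 kb from EPHA3, an ephrin receptor (chr3:88869894-88870199, fold 4.74), 370 kb from ZNF385D (chr3:22743258-22743547, fold 4.33) and in RANBP17, a nuclear transport receptor (chr5:170936006-170936229, fold 4.15).

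Around genes, members were widespread. Of 19974 protein-coding genes, 10239 (51.3%) had at least 1 member over the gene or within 10 kb, 5525 (27.7%) had 1 or 2, 4061 (20.3%) had 3 to 9 and 653 (3.27%) had 10 or more. Members often lay close to one another. The median distance from a member to the next was 7990.5 bases, 39.3% of members had no other within 5 kb, and 952 chains of 5 or more were spaced by at most 5 kb. For lost regions the median distance was 15563 bases and there were 312 such chains, in a class with fewer regions. The longest chain, 20 members in 36.1 kb, lay over SLCO4A1, an organic anion transporter, and the next, of 18 members in 24.8 kb, over PEPD, a dipeptidase.

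The gene with the most members was MAD1L1, a component of the spindle checkpoint, with 95 members within its span and 10 kb on each side, beside 7 regions gained with PR, 16 kept without PR, 11 kept with PR and 5 lost without PR. KCNMA1, a calcium-activated potassium channel, had 75, and ANKRD11, a chromatin regulator, had 53 with 3 lost. GRIK4, a kainate receptor subunit, had 52, DIP2C 51, RAD51B, a recombination protein, 48, SHANK2, a synaptic scaffold, 47, VAV2, a signalling protein, 46, RPTOR 46 and SLC24A3, a cation exchanger, 45. These genes are long, from 222.9 to 863.3 kb. The numbers per 100 kb were 21.8 for ANKRD11 and 21.7 for MAD1L1 but 5.43 for RAD51B, against 2.20 over all protein-coding genes. RAD51B had more regions kept without PR (70) than members, and DIP2C about as many (52). RPTOR had 46 members and 3 lost regions.

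By density, small genes led: LOC124903757 with 48.3 members per 100 kb of span and flanks, MUC21, a mucin, with 42.0, LOC107986982 with 41.3, CALML3, a calmodulin-like protein, with 41.3, and SLCO4A1 with 39.6. LOC124903754 (38.2), FAM25G (36.8), LOC128031832 (34.9), GTF2H4, a subunit of the transcription and repair factor TFIIH (34.7), and PVALEF (34.5) followed. In 7 of these 10 genes no region was lost without PR. Of all protein-coding genes, 46.3% had a region lost without PR within 10 kb, so having none was common. T47D cells carry extra copies of parts of their genome, and copy number was not measured here, so its part in these counts was not tested.

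Around genes known to respond to progestins or glucocorticoids, gained regions outnumbered lost ones. Of the 20 genes of this list, 14 (70.0%, 95% Wilson interval 48.1 to 85.5) had a member within 10 kb. That interval holds the 51.3% of all protein-coding genes. The 20 genes had 70 members, 26 regions gained with PR and 18 regions lost without PR. That is 3.89 members for each lost region, against 1.61 over all protein-coding genes. The latter had 37203 and 23050, each region counted for every gene it lies near. Within 50 kb the share with a member was 85% (64.0 to 94.8), an interval that holds the 67.9% of all protein-coding genes. The ratio within 50 kb was 2.33 against 1.58. Among the lists described below, it was higher at 50 kb for the polymerase III machinery (2.72) and the acetylation genes (2.49). With the R5020 list cut to the length of the vehicle list, the ratio of the progestin list within 10 kb was 2.63. That of all genes turned to 0.853. Members outnumbered lost regions at 12 of the 20 genes and lost regions outnumbered members at 2. The lists were chosen with earlier results of these data known, and H3K27Ac in both treatments is what the rule used, so these counts are descriptions.

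ZBTB16, a transcription factor that progestins and glucocorticoids induce, had the most members of the list, 21, with 7 regions gained with PR, 0 kept without PR, 1 kept with PR and 1 lost without PR. The member folds ran from 2.37 to 6.47, with a median of 3.43. They fell into 4 groups along the 197.1 kb of the gene. The first 2 members lay 0.059 to 1.82 kb from the left end of the gene span, with folds of 4.17 and 6.47, and the second of them (chr11:114060559-114061533) is the one named above, 6836 bases from PR and 100853 bases from vehicle H3K27Ac. Of the others, 1 lay at 95.3 kb, 14 lay between 108.9 and 123.9 kb, and 4 lay just past the right end, at 197.3 to 201.1 kb. The R5020 PR list had 23 regions over the gene, with folds up to 44.4, against 2 in vehicle. The 2 strongest lay at 103.0 to 104.8 kb, under the acetylated region present in both treatments, and at 118.9 to 120.4 kb, among the 14 members and across a pair of regions gained with PR. Maf1 had 7 regions and POLR3G 8 in the R5020 lists, and none of the 7 Maf1 regions lay at either end of the gene.

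**Figure D4:**
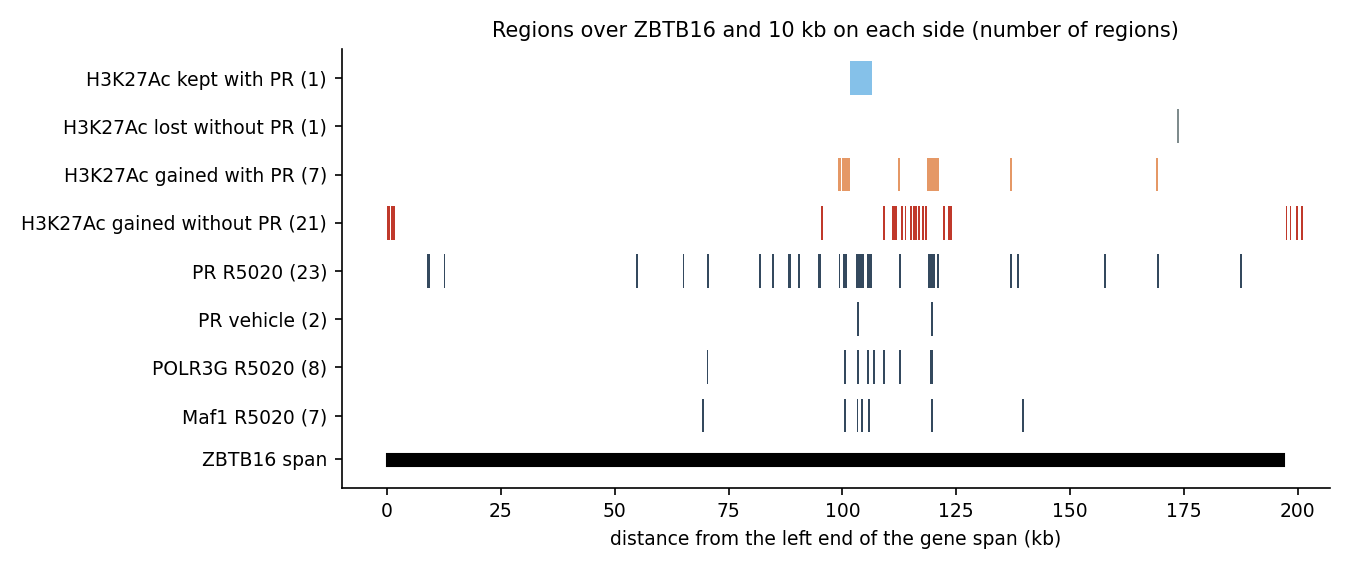
Regions over ZBTB16 and 10 kb on each side by their distance in kb from the left end of the gene span, in rows by H3K27Ac class and antibody with the number of regions, and the gene span as a black bar. Of the 21 members, 2 stand at the left end, 1 at 95.3 kb, 14 between 108.9 and 123.9 kb and 4 past the right end, while the 7 regions gained with PR and 23 R5020 PR regions lie inside the gene.

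FKBP5, a chaperone of steroid receptors, had 6 members, 9 regions gained with PR and 3 lost without PR, and its highest member reached a fold of 5.07, 248 bases from vehicle H3K27Ac and 306 bases from PR. STAT5A, a transcription factor of mammary epithelium, and EGFR, the epidermal growth factor receptor, each had 7 members, with 2 and 0 lost. HSD11B2, which inactivates cortisol, had 6 members and 0 lost, and WNT4, a ligand of the mammary progestin response, had 5 members and 4 lost. TSC22D3 (GILZ) and CCND1 (cyclin D1) each had 4 and 0. SGK1, TNFSF11, KLF9, IRS2, ERRFI1 and CEBPB had no member within 10 kb.

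Genes for the enzymes and readers of acetylation had 102 members and 42 lost regions, and 13 of 15 (86.7%) had a member, against 51.3% of all protein-coding genes. CREBBP, the acetyltransferase itself, had 11 members and 0 lost regions, KAT2A, another acetyltransferase, had 8 and 1, and BRD3, a reader of acetylated histones, had 7 and 1. These genes are long, with a median of 97.0 kb against 24.2 kb for all protein-coding genes, and had 4.81 members per 100 kb. The polymerase III machinery had 50 members and 23 lost regions, with a member at 11 of 20 genes (55%), near the 51.3% of all genes. With the R5020 list cut to the length of the vehicle list, the counts were 29 and 28 for this list and 65 and 46 for the acetylation genes. BRF1 held 24 of the 50, and POLR3A, BRF2 and GTF3C4 had 4 each.

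Around estrogen responsive genes, luminal transcription factor genes and immediate early genes, lost regions outnumbered members. Over all protein-coding genes there were 1.61 members for each lost region. Members per 100 kb were 3.72, 2.99 and 3.17 in that order, against 2.20 over all protein-coding genes. Lost regions were denser still in each list. A member was at 66.7% of estrogen responsive genes (95% Wilson interval 39.1 to 86.2). For luminal transcription factor genes the share was 61.5% (35.5 to 82.3). Both intervals hold the 51.3% of all genes. Estrogen responsive genes had 41 members and 59 lost regions, with more lost than gained at 7 of 12 genes. TFF1, a secreted peptide under estrogen control, had 0 members and 5 lost regions, BCL2, an inhibitor of cell death, 1 and 12, and RARA, a retinoic acid receptor, 0 and 4, while CA12, a carbonic anhydrase, had 12 members and 5 lost. GREB1 had 11 of each. Luminal transcription factor genes had 41 members and 64 lost regions, and PGR, the gene of PR itself, had 4 members, 27 regions kept without PR and 31 lost without PR. GRHL2, an epithelial factor, had 23 members and 5 lost, ESR1, the estrogen receptor, had 7 and 9, and FOXA1 and GATA3 had 0 and 3, and 1 and 3. Immediate early and kinase feedback genes had 20 members and 24 lost regions, with a member at 8 of 21 genes (38.1%, 95% Wilson interval 20.8 to 59.1), an interval that holds the 51.3% of all genes. NR4A1, an orphan nuclear receptor, had 8 members and ATF3 had 5. FOS had 1, and JUN, EGR1 and DUSP6 had 0 within 10 kb. Genes of other tissues had 18 of each, with a member at 6 of 16 (37.5%, 18.5 to 61.4), an interval that also holds 51.3%. Among the cell type markers, those of luminal epithelium had 14 members and 33 lost regions, basal markers 13 and 20, fibroblast markers 12 and 4, leukocyte markers 3 and 5, and endothelial markers 2 and 3, and the fibroblast count came from COL1A1 and PDGFRB, with 6 members each.

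**Figure D5:**
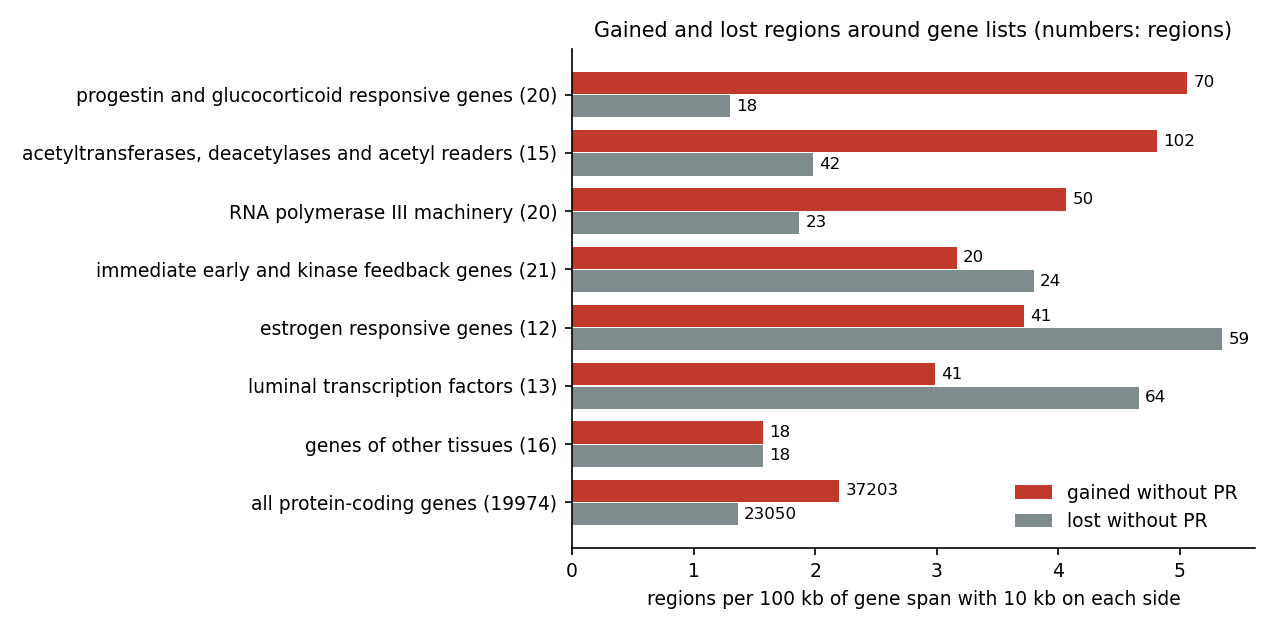
Regions gained without PR and lost without PR per 100 kb of gene span with 10 kb on each side, for 7 gene lists (number of genes in brackets) and all protein-coding genes, with the number of regions at each bar. Members exceed lost regions around progestin responsive genes (70 and 18), and lost regions exceed members around estrogen responsive genes (41 and 59) and luminal transcription factors (41 and 64).

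Every chromosome contributed members. Chromosome 1 had the most, 3565 (9.65%), and chromosome 18 the fewest, 377 (1.02%). Of the R5020 regions without PR on a chromosome, the share that was gained ran from 38.4% on chromosome 19 and 41.1% on X to 59.6% on chromosome 15, and was 51.9% in all. Lost regions for each member ran from 0.489 on chromosome 20 to 0.961 on chromosome 19, with 0.665 in all. Members outnumbered lost regions on all 23 chromosomes, but with the R5020 list cut to the length of the vehicle list they did so on 3, and 1.23 regions were lost for each member (28391 and 23070).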

How the data were processed

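Chromatin immunoprecipitation libraries of T47D cells were grouped by antibody and by the treatment in their titles. The authors deposited 1 narrowPeak list for each antibody and treatment, and how the 3 replicates were combined is not given in the sources used here. The submitters' processing notes name cutadapt, Bowtie2, MACS2 and hg38, with no roles or versions. Each deposited list gives, for a peak, the authors' fold enrichment (a ratio) and the -log10 of its q-value, whose lowest value in the H3K27Ac lists was 1.30. Read depth is unknown. A deeper library or a stricter call in either treatment changes which regions count as absent.

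An overlap needed 1 common base. Rows on Y and on unplaced sequence were left out. Genes and starts came from RefSeq tables of GRCh38.p14, and a gene had a region when one lay over it or within 10 kb. Shares have 95% Wilson intervals and differences 95% Newcombe intervals, with no p-value, since there is 1 list per group. The overlap code and intervals were tested on simulated data. Python 3.11.15, numpy 2.4.6, pandas 2.3.3 and matplotlib 3.10.9 were used. The members, gene lists, motifs and comparisons were chosen with earlier results of these data known, and the CG counts and the share over genes were added after the values were seen.

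Named regions are the 10 members of highest -log10 q, the 5 widest, the 5 of highest fold over a start, the 5 of highest -log10 q at least 50 kb from vehicle H3K27Ac and PR, the 5 of highest -log10 q with 3 or more other R5020 antibodies, and the 5 nearest each side of the threshold, ties by position. Named genes are the 10 with the most members, the 10 with the most per 100 kb among genes with at least 5, and examples from the fixed lists, of which some genes are not reported here. Sequences of regions away from gene starts were not analysed here. The alternatives tried were a higher q threshold, lists of equal length, wider or stricter overlaps, another distance to genes and the removal of 1 chromosome.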

Additional observations from a re-analysis of the deposited data

How the results depend on the processing

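The number of regions gained without PR was 36933. It was 6715 at a -log10 q of at least 5, 23070 with the R5020 list cut to the length of the vehicle list and 15055 where no vehicle H3K27Ac or PR region was allowed within 1 kb. Of 57 recomputed differences of shares, 51 kept their direction and their side of 0. The vehicle POLR3G difference from lost regions, -0.685 points, became 0.199 points at a -log10 q of at least 5 and 0.876 points with that 1 kb rule. It became -0.408 points around the summit and -0.262 points where 50% of the region had to be covered, with intervals that included 0. With the 1 kb rule the near-start difference from lost regions became 0.156 points, and the vehicle PR difference became -0.0580 points with an interval that included 0. The cause was not tested. Within 50 kb in place of 10 kb, the share of genes with a member was 81.0% for immediate early genes, 100% for estrogen responsive genes, 84.6% for luminal transcription factors and 85% for the polymerase III machinery, beside 67.9% of all protein-coding genes. The near-start alternative of 50% cover has no value, since a start is 1 base. The near-start differences over either end of the gene span, and the difference in the share over protein-coding genes, were chosen after seeing the data and kept their direction. Members outnumbered lost regions by 1.61 to 1 around all protein-coding genes, and they numbered 36933 against 24562 in all. With the R5020 list cut to the length of the vehicle list the ratios turned to 0.853 and 0.813, and the ratio of basal markers, 0.65, turned to 1.03 within 50 kb. These ratios were also chosen after seeing the data. No paired analysis was possible because each antibody and treatment has 1 peak list with no replicate numbers. Unknown depth and the lack of replicate lists limit every count.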
